A study of Homo sapiens with 34 samples.

Results

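Where SMARCA1 and OGG1 sat on chromatin was compared in H2O2-treated U2OS cells depleted of Orc6, from the lists of regions that the study's authors called in each CUT&RUN library. The members are the regions of 4 libraries, chosen by their labels: SMARCA1 replicates 1 and 2 and OGG1 replicates 1 and 2, all from siOrc6 cells given H2O2, and set against each other by replicate number. They hold 306183 of the 978086 regions in the 20 lists of the series.

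U2OS is a human osteosarcoma cell line. The cells of all 4 libraries had carried an siRNA against Orc6 for 72 h, had been held by thymidine and released for 3 h into early S phase, and had then been given 5 mM H2O2 for 30 min. Each reaction took 500000 cells, fixed for 1 min in 0.1% formaldehyde, so the antibody is the one labelled difference between the groups. The same 2 antibodies were used in siGl3 cells (an siRNA against firefly luciferase, commonly used as a control) and untreated cells of both siRNAs. These groups have 2 libraries each, 12 libraries in all. Tests over all conditions used these 12 together with the 4 above, and the test of single genes used the 12 alone. The labels give a batch number equal to the replicate number, but nothing says that replicates came from separate cultures, so p-values measure the spread between these libraries, which may be technical. The names of all 4 SMARCA1 lists of siOrc6 cells, and of no OGG1 list, mark them as submitted again, so within siOrc6 cells the antibody and that mark cannot be told apart. No expression was measured, so neither the knockdown nor the cell type could be checked against its genes, and without read counts the depth behind each list is unknown. The IgG libraries were not analysed here.

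SMARCA1 (also called SNF2L) is the ATPase of ISWI chromatin remodelling complexes, which slide and space nucleosomes and act near gene promoters. OGG1 is the DNA glycosylase that opens base excision repair by removing oxidised guanine, the main base lesion left by H2O2, and it has been linked to GC-rich promoters. Orc6 belongs to the origin recognition complex, which marks the sites where replication starts.

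The promoters below are examples chosen by signal rank and need not be typical of their classes. Of each kind 2 are shown: SMARCA1 regions and no OGG1 region, OGG1 regions and no SMARCA1 region, and regions in all 4 libraries. They were taken by signal rank from genes whose promoter lay wholly inside a region of each library of their class. Not every chromosome was open to this choice, so genes of higher rank can be missing. In the class with OGG1 alone, ACTB, MAF1, WDR97, TG and CCL19 ranked above ZBTB5 and SKA2 and are not shown. In the class with all 4 libraries, FSCN1 and MAFK ranked above TTYH3 and are not shown. Sequences are from RefSeq on GRCh38.p14, each of 300 bases from 250 before the gene start to 50 after it, read 5′ to 3′ on the gene's strand. Capitals mark GGGCGG (the GC box) and CCAAT (the CCAAT box) on either strand. RPS6KB1, which encodes S6 kinase 1 of the mTOR pathway, lies at chr17:59892871-59893170 on the plus strand. TUBD1, which encodes delta-tubulin, starts beside it on the minus strand at chr17:59892894-59893193, so both share most of their bases. The minus-strand promoters of ZBTB5, a zinc-finger gene, and SKA2, a gene of the spindle and kinetochore complex, lie at chr9:37465401-37465700 and chr17:59155137-59155436. TMEM184A, a membrane protein gene, lies at chr7:1556156-1556455 on the minus strand, and TTYH3, a gene of the tweety family of anion channels, at chr7:2631736-2632035 on the plus strand.
RPS6KB1: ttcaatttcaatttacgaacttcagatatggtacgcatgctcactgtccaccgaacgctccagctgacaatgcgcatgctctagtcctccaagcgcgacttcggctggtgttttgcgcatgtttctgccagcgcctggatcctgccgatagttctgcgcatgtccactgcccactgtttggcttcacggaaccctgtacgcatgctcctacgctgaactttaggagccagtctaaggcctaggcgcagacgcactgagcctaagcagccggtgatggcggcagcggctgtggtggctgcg
TUBD1: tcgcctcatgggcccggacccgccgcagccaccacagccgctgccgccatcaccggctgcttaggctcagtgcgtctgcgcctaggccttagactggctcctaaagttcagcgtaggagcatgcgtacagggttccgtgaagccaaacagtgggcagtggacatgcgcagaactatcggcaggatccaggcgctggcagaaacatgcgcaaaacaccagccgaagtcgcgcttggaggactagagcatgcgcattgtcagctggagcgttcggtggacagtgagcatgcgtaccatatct
ZBTB5: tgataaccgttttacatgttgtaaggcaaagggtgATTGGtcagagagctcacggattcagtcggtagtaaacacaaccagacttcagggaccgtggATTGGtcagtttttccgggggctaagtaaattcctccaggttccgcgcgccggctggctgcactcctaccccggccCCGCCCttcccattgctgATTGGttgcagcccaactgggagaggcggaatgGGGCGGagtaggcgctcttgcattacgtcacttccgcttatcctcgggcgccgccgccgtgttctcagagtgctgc
SKA2: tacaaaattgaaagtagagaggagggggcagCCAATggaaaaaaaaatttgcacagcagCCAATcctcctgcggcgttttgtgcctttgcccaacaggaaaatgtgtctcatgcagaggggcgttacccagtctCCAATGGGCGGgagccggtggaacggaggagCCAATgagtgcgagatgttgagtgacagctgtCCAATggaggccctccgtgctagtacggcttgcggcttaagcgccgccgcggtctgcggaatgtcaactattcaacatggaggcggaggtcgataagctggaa
TMEM184A: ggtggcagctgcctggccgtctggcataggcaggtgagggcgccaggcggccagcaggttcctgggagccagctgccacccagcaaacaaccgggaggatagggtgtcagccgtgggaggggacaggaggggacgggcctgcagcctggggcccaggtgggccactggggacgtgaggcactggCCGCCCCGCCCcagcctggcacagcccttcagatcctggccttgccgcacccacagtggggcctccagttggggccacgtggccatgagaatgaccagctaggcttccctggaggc
TTYH3: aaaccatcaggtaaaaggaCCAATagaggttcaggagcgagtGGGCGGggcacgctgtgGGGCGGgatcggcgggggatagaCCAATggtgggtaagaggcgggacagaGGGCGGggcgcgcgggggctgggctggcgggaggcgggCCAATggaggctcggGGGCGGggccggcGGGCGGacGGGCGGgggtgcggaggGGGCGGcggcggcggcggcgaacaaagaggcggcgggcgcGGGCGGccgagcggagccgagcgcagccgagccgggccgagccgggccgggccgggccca
The pair with SMARCA1 alone holds no GC box and no CCAAT box. TTYH3 holds 8 GC boxes and 42 CpG, and TMEM184A 2 GC boxes and 11 CpG. RPS6KB1 has 21 CpG and a GC content of 56.7%, close to ZBTB5 with 21 CpG and 57.7%. The examples can differ from their classes: GGGCGG was in 56.7% of promoters of genes with SMARCA1 alone. Promoters of genes with OGG1 alone had it in 32.7% of cases and a median of 6 CpG, against 21 in ZBTB5 and 17 in SKA2.

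OGG1 lists covered several times more of the genome than SMARCA1 lists in both pairs, in more and wider regions. SMARCA1 libraries held 35381 and 65093 regions (replicates 1 and 2) and OGG1 libraries 132408 and 73301. The groups did not overlap, but SMARCA1 replicate 2 and OGG1 replicate 2 lay close, with 1.13 times more regions for OGG1 against 3.74 times in the pair of replicate 1. SMARCA1 regions covered 89.8 and 158.2 Mb, and OGG1 regions 746.4 and 557.5 Mb. That was 2.97% and 5.22% of the 3.03 Gb spanned by the lists for SMARCA1, and 24.6% and 18.4% for OGG1. OGG1 therefore covered 8.31 and 3.52 times more bases. The median region was 2079 and 1883 bp wide for SMARCA1 and 3224 and 4178 bp for OGG1. Regions wider than 20 kb numbered 25 and 84 in the SMARCA1 lists and 4710 and 4661 in the OGG1 lists, where they held 22.96% and 33.2% of the bases.

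With 2 against 2 libraries the exact permutation test cannot go below p = 0.333, which all 5 measures of the lists gave, or below 0.5 when the antibody is exchanged within replicate numbers. The same antibody difference was therefore tested over the 4 combinations of siRNA and treatment, 8 libraries of each antibody (exact two-sided permutation within combinations, Benjamini-Hochberg adjusted over the 5 measures). OGG1 lists were longer by 1.06 on the log2 scale (adjusted p = 0.00257, exact), covered more bases by 2.36 (adjusted p = 0.00257, exact) and had wider median regions by 0.86 (adjusted p = 0.00386, exact). Each of these held in 8 of 8 pairs. With lists of equal length the difference in number was 0.53 and no longer passed (adjusted p = 0.0694, exact permutation), and at equal covered bases it was -3.27 (adjusted p = 0.00386, exact permutation). Whether the difference in H2O2-treated siOrc6 cells was unlike that elsewhere was tested by choosing 2 of the 8 pairs in all 28 ways. No measure passed: in siOrc6 H2O2 cells region number differed by 1.04 and covered bases by 2.44 on the log2 scale, against 1.06 and 2.33 over the other 6 pairs (adjusted p = 1 for both, exact).

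**Figure D1:**
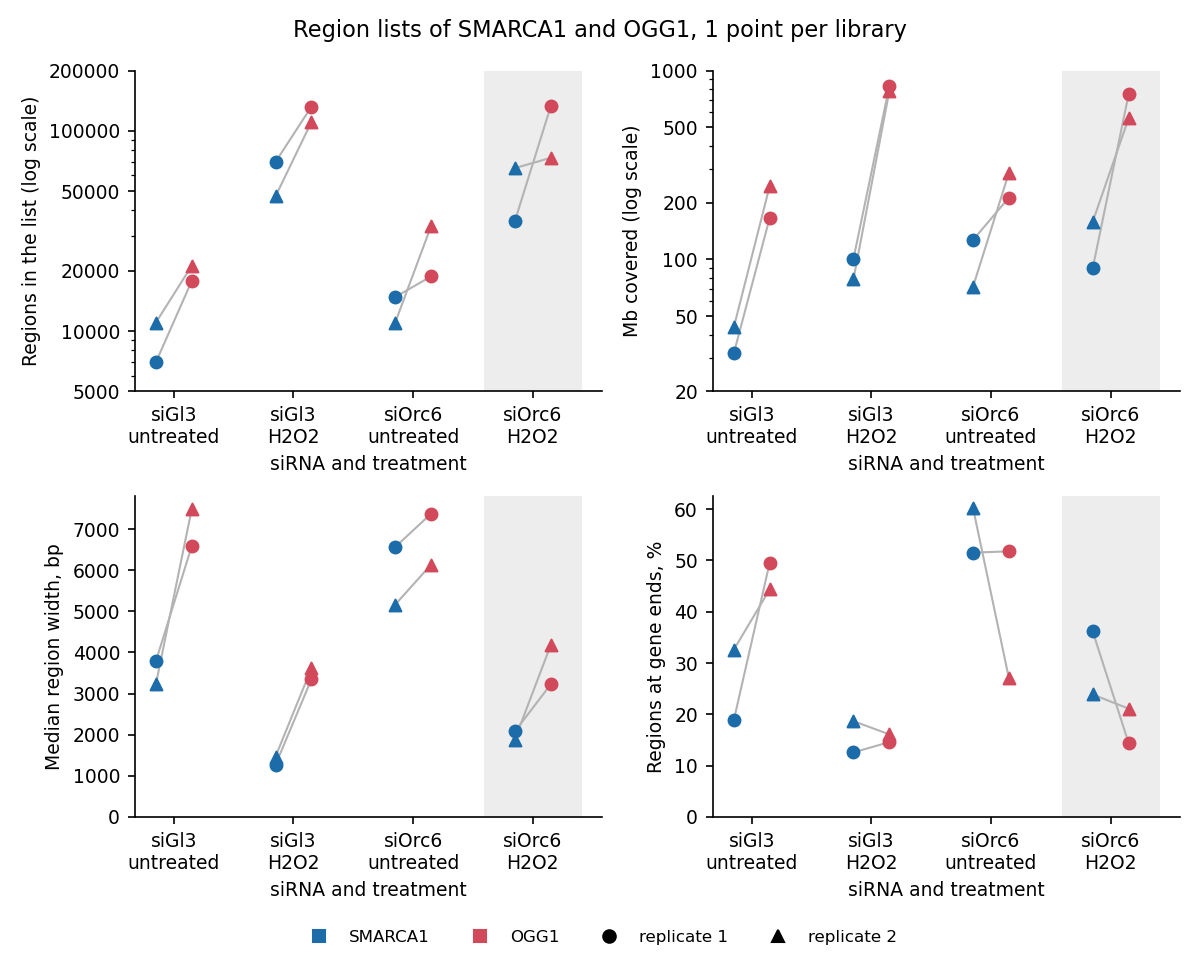
Region number, covered Mb (both log scales), median width (bp) and share of regions at gene ends (%) for each SMARCA1 (blue) and OGG1 (red) library, by siRNA and treatment, with lines joining libraries of the same replicate number and siOrc6 H2O2 shaded. OGG1 lies above SMARCA1 in 8 of 8 pairs for the first 3 measures and in 4 of 8 for the share at gene ends.

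In the lists as deposited, a larger share of SMARCA1 than of OGG1 regions lay at gene ends, a direction that turned with list size. A region was counted at a gene end when it overlapped, by 1 bp or more, the 1 kb on either side of either end of one of 19974 protein-coding genes, windows that make up 2.39% of the span. In the SMARCA1 lists 36.2% and 23.9% of regions lay there, against 14.4% and 21.1% in the OGG1 lists. The groups did not overlap, but the difference was -21.7 points in the first pair and -2.76 in the second. Over all 8 pairs it was -1.94 points, with 4 of 8 in that direction (adjusted p = 0.736, exact permutation). With lists held to their regions of highest signal the difference in these cells was -2.54 points at equal length and 35.9 points, with OGG1 higher, at equal covered bases. Over all 8 pairs at equal bases it was 36.1 points (adjusted p = 0.00772, exact permutation). By bases, SMARCA1 covered gene-end windows 10.2 and 6.85 times more densely than the span as a whole. For OGG1 the values were 2.29 and 3.03 times. At the 22012 annotated starts (15812 genes have a strand in the table used) this enrichment was 16.8 and 10.5 times for SMARCA1 and 2.69 and 3.75 times for OGG1. At the far ends of the same genes it was 3.46 and 3.06 times for SMARCA1 and 1.88 and 2.29 times for OGG1. Such a ratio cannot exceed the span divided by the bases that a list covers. That ceiling is lower for OGG1, which covered 24.6% and 18.4% of the span, than for SMARCA1 with 2.97% and 5.22%. The ratios of the antibodies are therefore not on a like scale.

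The number of genes reached differed far less than the bases covered. SMARCA1 regions touched the start of 66.5% and 72.4% of these genes and OGG1 regions 77.2% and 77.3%. At far ends SMARCA1 reached 17.4% and 26.5% of genes and OGG1 57.9% and 50.8%, so the antibodies separated most there. Counting either end, 65.7% and 72.1% of protein-coding genes were occupied by SMARCA1 and 79.6% and 78.2% by OGG1. Over the 8 pairs OGG1 occupied more genes by 24.4 points (8 of 8 pairs, adjusted p = 0.00257, exact permutation). At equal covered bases SMARCA1 occupied more, with a difference of -24.1 points (adjusted p = 0.0116, exact permutation). The difference was 9.99 points in siOrc6 H2O2 and 9.88 in untreated siOrc6 cells, and 38.8 and 39.0 in untreated and H2O2-treated siGl3 cells. Set against the other 6 pairs together, siOrc6 H2O2 did not pass (adjusted p = 0.982, exact permutation). The direction depended on list size: with each list held to its 35381 regions of highest total signal the difference in these cells was -0.88 points, and without regions wider than 20 kb it was -5.51.

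Outside protein-coding genes the gap was larger. SMARCA1 regions lay at the ends of 28.6% and 36.1% of lncRNA genes and OGG1 regions at 58.5% and 51.4%. For snoRNA genes, whose products guide RNA modification and mostly lie in introns, the shares were 13.4% and 19.5% against 56.4% and 42.0%. For tRNA genes they were 45.2% and 49.9% against 66.6% and 66.1%. The groups did not overlap in any of these 3 classes.

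Within a region the authors recorded the place of highest signal, here called its maximum. Maxima within 1 kb of an annotated start made up 26.2% and 15.3% of SMARCA1 maxima and 5.63% and 10.7% of OGG1 maxima. In number there were 9285 and 9937 for SMARCA1 and 7460 and 7810 for OGG1, so the shorter SMARCA1 lists had more of them. More of them lay downstream than upstream: 6551 against 2734 and 6918 against 3019 for SMARCA1, and 4108 against 3352 and 4706 against 3104 for OGG1. The first 250 bp downstream of the start held 4306 and 4509 SMARCA1 maxima and 2359 and 3270 OGG1 maxima, the most of any bin in each library. In OGG1 replicate 1 the bin centred 375 bp upstream held more maxima than the bin just upstream of the start, 1361 against 1151, but in replicate 2 it held fewer, 1184 against 1379.

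**Figure D2:**
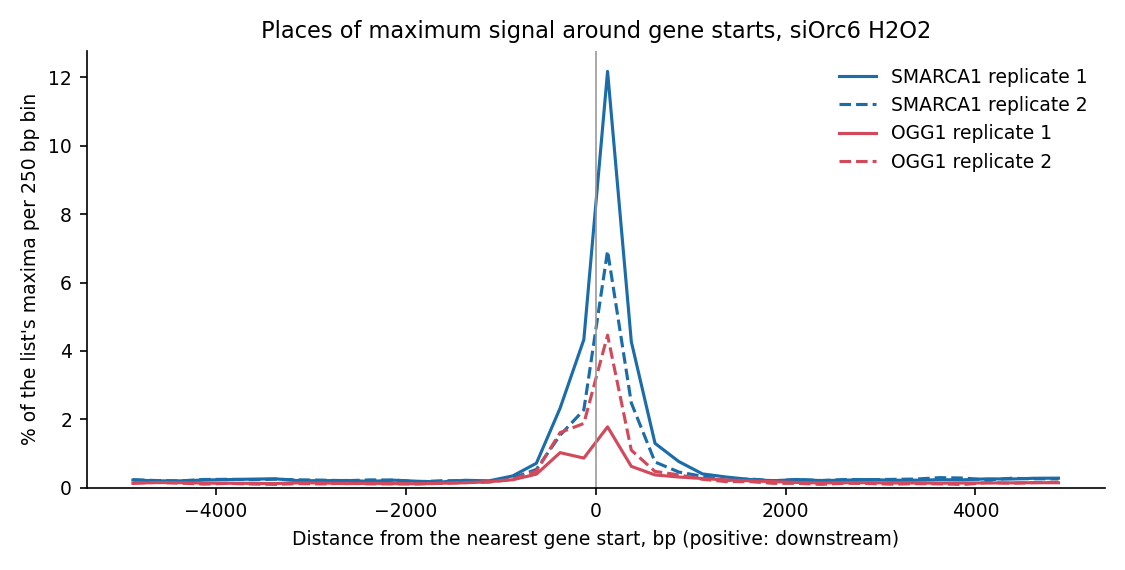
Share of each list's maxima (%) in 250 bp bins by distance from the nearest annotated gene start (bp, positive downstream), for the 2 SMARCA1 (blue) and 2 OGG1 (red) libraries of siOrc6 H2O2 cells, replicate 1 solid and replicate 2 dashed. All 4 lists peak in the first bin downstream of the start, at 12.2% and 6.93% for SMARCA1 and 1.78% and 4.46% for OGG1.

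In the lists as deposited, nearly all SMARCA1 regions lay on OGG1 regions, while most OGG1 regions lay apart from SMARCA1. With lists held to equal covered bases the order turned, with means of 22.5% of SMARCA1 and 97.5% of OGG1 regions overlapped. Of SMARCA1 regions 91.7% and 88.5% overlapped, by 1 bp or more, a region of the OGG1 library of the same number, and of OGG1 regions 17.8% and 42.0% overlapped SMARCA1. With the numbers crossed the shares were 94.1% and 86.8% for SMARCA1, and 27.8% and 27.7% for OGG1. The spread between the pairs of the same number was thus as wide as the step from paired to crossed numbers. In the other conditions the mean share of SMARCA1 regions on OGG1 was 55.2% in untreated siGl3, 87.0% in H2O2-treated siGl3 and 84.6% in untreated siOrc6 cells.

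SMARCA1 regions sat as short stretches inside broader OGG1 regions. Wholly inside 1 OGG1 region lay 69.0% and 73.5% of them. An OGG1 region with SMARCA1 had a median width of 7828 and 7210 bp, against 2926 and 3476 bp for those without, and SMARCA1 covered a median of 30.0% and 36.3% of it. More than 1 SMARCA1 region lay in 22.5% and 32.6% of these OGG1 regions, up to 61 and 80. OGG1 regions with SMARCA1 stood at a median signal percentile of 85.7 and 76.2 (the rank of a region's total signal in its own list, up to 100), and those without at 42.97 and 33.3. A wide region has more room for overlap and a larger total, so width, signal and overlap move together here. The wide regions carried much of the overlap: without regions above 20 kb the mean share of SMARCA1 regions on OGG1 was 56.9%, against 90.1% with them.

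**Figure D3:**
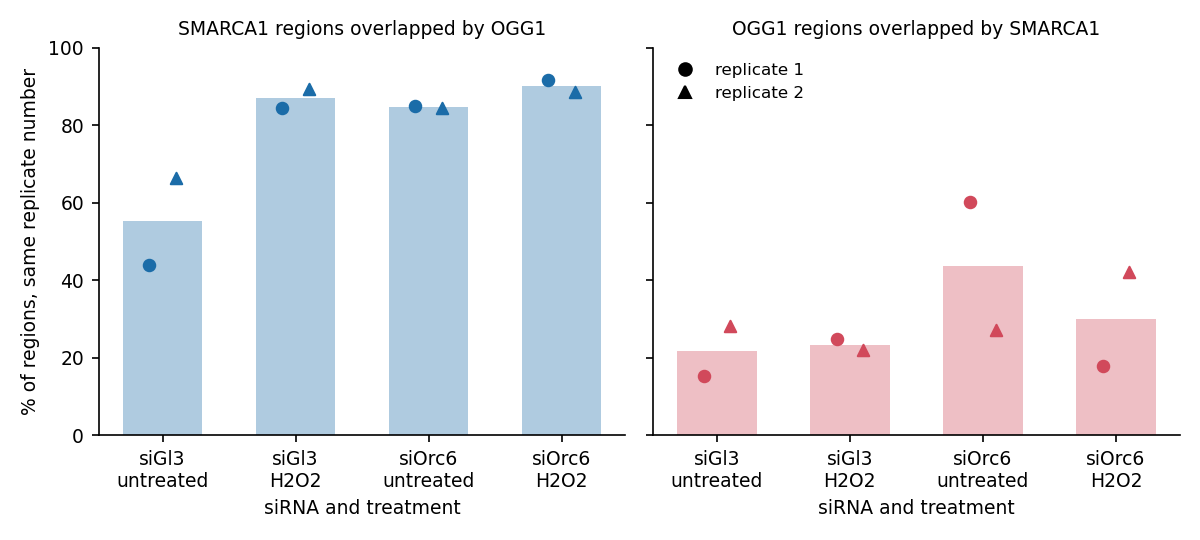
Share of SMARCA1 regions overlapped by OGG1 (left) and of OGG1 regions overlapped by SMARCA1 (right), in % of regions, for libraries of the same replicate number in each siRNA and treatment. Bars are means of 2 pairs and points are the pairs. In siOrc6 H2O2 cells the SMARCA1 pairs sit at 91.7% and 88.5% and the OGG1 pairs at 17.8% and 42.0%.

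Where regions of 2 lists overlapped, the maxima of the antibodies lay about as far apart as those of the OGG1 replicates. The median distance from a SMARCA1 maximum to the nearest OGG1 maximum of an overlapping region was 1254 and 2545 bp in the 2 pairs. Between the SMARCA1 replicates it was 247 and 238 bp, and between the OGG1 replicates 1651 and 1149 bp. The distances between antibodies thus lay around those between OGG1 replicates and well above those between SMARCA1 replicates. The sets of regions are unlike, since the OGG1 replicate values cover all 73572 and 63587 overlapping regions, with or without SMARCA1. Of SMARCA1 maxima, 18.02% and 18.8% lay within 200 bp of an OGG1 maximum, against 16.7% and 19.3% between OGG1 replicates and 46.2% and 46.8% between SMARCA1 replicates. The middles of overlapping OGG1 regions were farther away still, at a median of 2246 and 2972 bp.

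To set aside regions seen in a single library, stretches covered in both replicates of an antibody were formed. There were 31442 for SMARCA1 and 91928 for OGG1. Of the SMARCA1 stretches 28680 (91.2%) overlapped both OGG1 libraries, 2187 overlapped 1, and 575 (1.83%) overlapped none. Of the OGG1 stretches 21443 (23.3%) overlapped both SMARCA1 libraries, 18617 overlapped 1, and 51868 (56.4%) overlapped none. These shares are the background for the classes below, since the classes were built from the same lists and carry no test. The 575 rested on the full length of each list: the count was 1626 with lists held to 35381 regions and 8446 without regions above 20 kb. Leaving out SMARCA1 replicate 1 or 2 gave 3652 and 995, and leaving out OGG1 replicate 1 or 2 gave 1048 and 2289. The 51868 became 92866 without OGG1 replicate 2 and 14391 with lists of equal length, and the 28680 became 52664 without SMARCA1 replicate 1. The 21443 became 37384 without SMARCA1 replicate 1.

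OGG1 stretches that SMARCA1 shared lay at gene ends far more often than those it did not share. At gene ends lay 52.4% of the OGG1 stretches with both SMARCA1 libraries and 5.65% of those with none. Of the latter, 52.2% lay inside protein-coding genes away from their ends and 42.1% outside such genes. The contrast stood in each width class: among stretches of 2 to 5 kb it was 49.2% against 6.02%, and among those over 10 kb 59.2% against 16.7%. For SMARCA1 stretches the contrast was small, 39.9% at gene ends with both OGG1 libraries and 28.3% with none. By width it was 17.8% against 18.8% below 1 kb, 34.6% against 35.5% at 1 to 2 kb, and 54.3% against 42.9% at 2 to 5 kb, where 28 stretches had no OGG1. SMARCA1 stretches without OGG1 were short and weak, with a median of 1079 bp against 1730 bp and median signal percentiles of 35.7 and 49.98 against 62.7 and 80.4. OGG1 covered a median of 19.3% and 19.8% of the 1 Mb around them, close to its 24.6% and 18.4% of the whole span, against 61.6% and 57.7% around the shared ones. The nearest OGG1 region was a median of 2.21 kb away, and for 68 of the 575 it was over 100 kb away.

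The lists of other conditions did not enter the classes, and OGG1 stretches without SMARCA1 were found most in the OGG1 lists made after H2O2. The 2 OGG1 lists of H2O2-treated siGl3 cells, which cover 27.2% and 25.6% of the span, overlapped 89.4% and 87.8% of them. Untreated OGG1 lists, which cover 5.47% to 9.50% of the span, overlapped 6.27% and 15.04% of them in siGl3 and 9.50% and 28.4% in siOrc6 cells. These shares and the covered span moved together, and the part of list size was not tested. SMARCA1 lists overlapped 18.5% and 12.8% of them in H2O2-treated siGl3 cells and 0.852% to 3.46% in the 4 untreated SMARCA1 lists. The shared OGG1 stretches recurred more widely: OGG1 lists overlapped 64.2% to 99.4% of them, and Orc6 lists of siGl3 cells 52.9% to 77.9%. SMARCA1 stretches without OGG1 rarely recurred in the antibody that called them. The 6 other SMARCA1 lists, which cover 1.05% to 4.18% of the span, overlapped 0.348% to 4.52% of them. The 6 other OGG1 lists, which cover 5.47% to 27.2% of the span, overlapped 2.43% to 48.9%. The part of list size in this contrast was not tested either. The 2 H2O2 OGG1 lists of siGl3 cells overlapped 34.1% and 48.9% of these stretches, which the OGG1 lists of siOrc6 H2O2 cells did not.

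**Figure D4:**
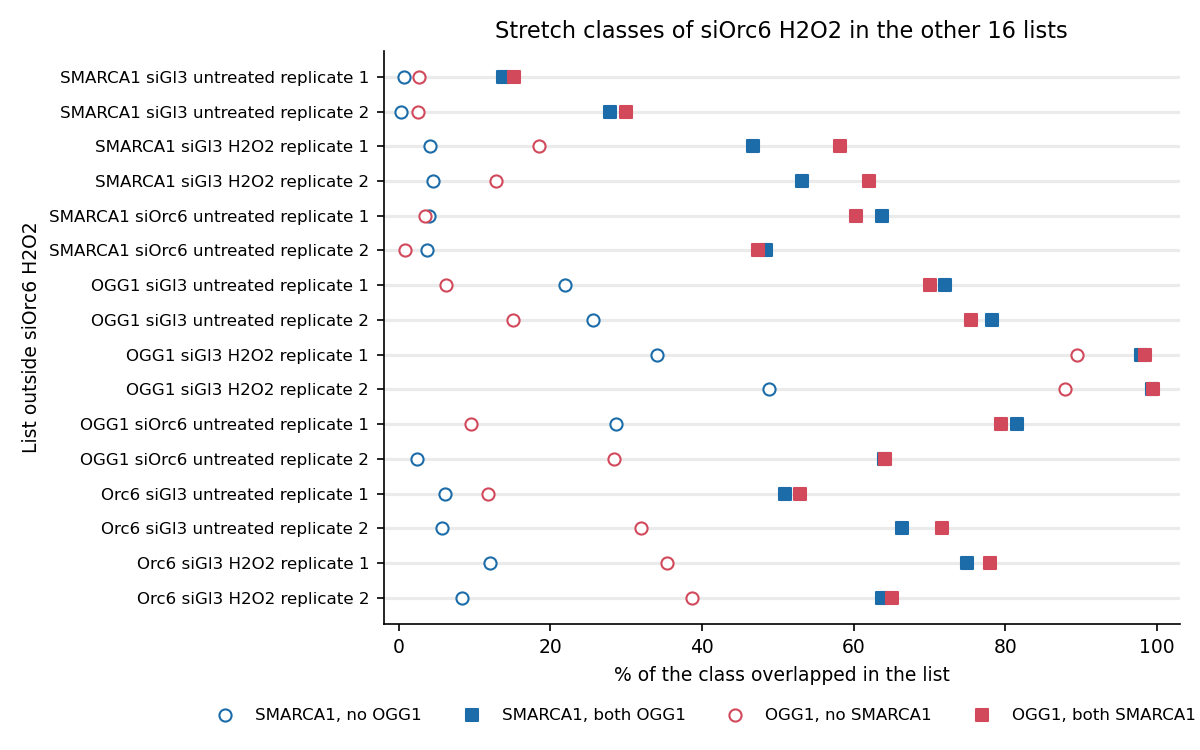
Share of each class of stretches (% of the class) overlapped in each of the 16 lists of other conditions, with SMARCA1 classes in blue, OGG1 classes in red, open circles for stretches without the other antibody and filled squares for stretches with both of its libraries. The squares lie to the right of both circles in every list, and OGG1 stretches without SMARCA1 reach 89.4% and 87.8% in the 2 OGG1 lists of H2O2-treated siGl3 cells.

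Among single stretches of highest signal rank, the SMARCA1 stretch without OGG1 at the head was chr11:79987513-79989888, 546482 bp from its nearest protein-coding gene, TENM4. Its signal percentile was 99.85 and 99.93 in the SMARCA1 lists, and it overlapped none of the 16 other lists. The next was chr17:59892201-59894713, which holds the starts of RPS6KB1 and TUBD1 printed above. The remaining 3 lay outside protein-coding genes on chromosomes 11 and 7. The OGG1 stretches without SMARCA1 of highest rank lay inside ENTPD5, STX5 and UBE2L3, away from their ends, and 37.1 kb from IRF2BPL and 12.5 kb from CCDC188. The first, chr14:73982215-73985140 in ENTPD5, overlapped 6 of 6 other OGG1 lists and 1 of 6 other SMARCA1 lists. Stretches shared by all 4 libraries at the highest rank lay at FSCN1 (fascin, which bundles actin), at MAFK with TMEM184A, at TTYH3, at SCRT1 and at GLI4, each in 6 of 6 other OGG1 lists.

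Both antibodies followed the same chromosomes. SMARCA1 covered 8.91% and 15.9% of chromosome 22, 8.50% and 14.9% of chromosome 17 and 8.75% and 14.1% of chromosome 19, and OGG1 covered 41.7% and 42.8%, 45.6% and 43.3%, and 29.8% and 38.3%. At the low end stood chromosome X, with 0.620% and 0.904% for SMARCA1 and 2.96% and 2.68% for OGG1, and chromosome 13, with 0.767% and 1.30% against 7.05% and 4.45%. The ratio of OGG1 to SMARCA1 ran from 3.398 on chromosome 19, which has the most genes per Mb, to 13.7 on chromosome 4 in the first pair. In the second pair it ran from 2.68 on chromosome 22 to 4.35 on chromosome 3. Copy number of these chromosomes was not measured. In 1 Mb bins (2822 bins, which share each library's depth) covered shares had a Spearman rho of 0.971 between the SMARCA1 replicates, 0.947 between the OGG1 replicates, and 0.891 and 0.970 between the antibodies in the pairs. In bins without a gene start OGG1 covered 4.51% and 1.62% and SMARCA1 0.295% and 0.490%. In bins with 15 or more starts the values were 50.4% and 51.7% against 10.6% and 17.7%. From the former to the latter the ratio of OGG1 to SMARCA1 went from 15.3 to 4.77 in the first pair and from 3.30 to 2.92 in the second.

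**Figure D5:**
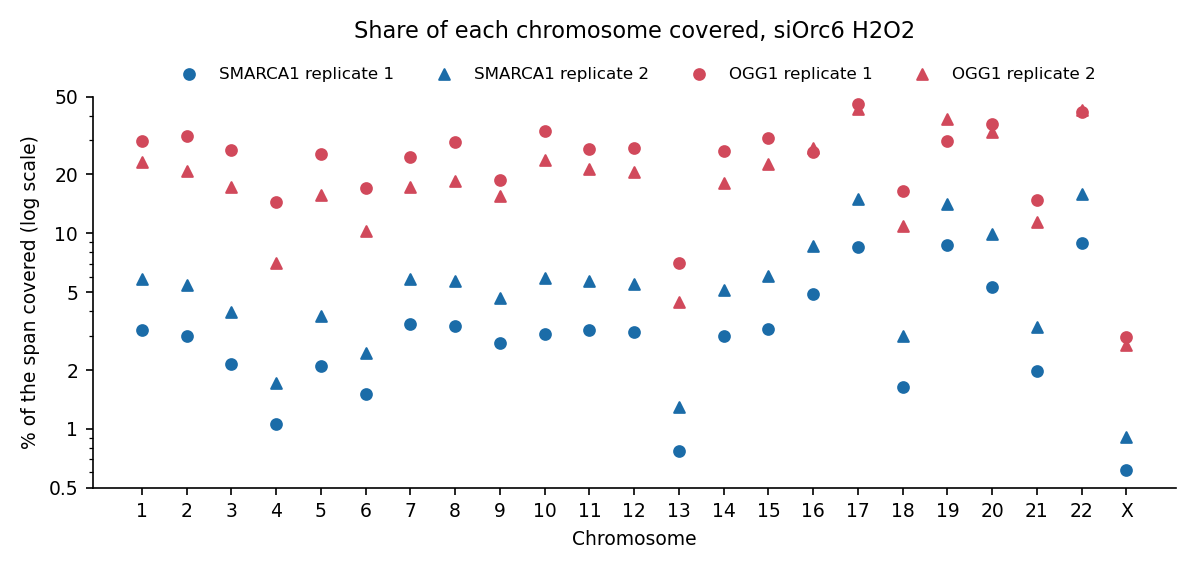
Share of each chromosome's span covered by regions (%, log scale) for the 2 SMARCA1 (blue) and 2 OGG1 (red) libraries of siOrc6 H2O2 cells, circles for replicate 1 and triangles for replicate 2. Both antibodies are lowest on X, at 0.620% and 0.904% for SMARCA1 and 2.96% and 2.68% for OGG1.

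Most genes carried both proteins or neither. Of 19974 protein-coding genes, 12292 (61.5%) had a region at an end in all 4 libraries and 3032 in none. OGG1 was in both libraries and SMARCA1 in none at 1128 genes (5.65%), and SMARCA1 was in both and OGG1 in none at 102 genes (0.511%). The other genes were mixed, among them 1471 with both OGG1 libraries and 1 SMARCA1 library. The class without regions includes long blank stretches: 552 of the 3032 genes lie in stretches of 500 kb or more without a region in any of the 20 lists. The one with most genes is chr6:28510432-33480034, which spans the major histocompatibility complex and holds 171 protein-coding genes. For a gene in such a stretch the lists say only that no region is listed. The count with SMARCA1 alone moved with list size, to 696 with lists of equal length and 1357 without regions above 20 kb. It was 259 or 155 without SMARCA1 replicate 1 or 2, and 179 or 384 without OGG1 replicate 1 or 2. The count with OGG1 alone was 747 with lists of equal length, 2346 without SMARCA1 replicate 2 and 1914 without OGG1 replicate 2.

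The genes with all 4 libraries were ranked by signal outside the gene lists read below. The first were TMEM184A, FSCN1, TTYH3, SCRT1, TONSL, GLI4, ELFN1, LIF, ARC and ACTN1. The signal percentile of each was 99.89 or above in its lowest library. MAFK, a member of the gene lists, ranked as high, at 99.98 or above in each library. LIF encodes a cytokine of the interleukin-6 family, ACTN1 an actin cross-linker and TONSL a protein that repairs stalled replication forks. Each of these top genes had OGG1 in 6 of 6 other OGG1 libraries and SMARCA1 in 4 to 6 of 6. Many were neighbours: TMEM184A, ELFN1, TTYH3 and FSCN1 lie within chr7:1542235-5606655, and ARC, GLI4, SCRT1 and TONSL within chr8:142611049-144444440. ACTB lies in the first of these spans and MAF1 and WDR97, named next, in the second. Local copy number was not measured.

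Among the 1128 genes with OGG1 alone, ACTB (beta-actin) came first. Its ends lay in regions at signal percentiles 100 and 99.99 of the OGG1 lists, 414301 and 266478 bp wide at the gene start. The SMARCA1 lists had a stretch without regions there of 53.4 and 32.1 kb. In untreated siOrc6 cells both SMARCA1 libraries covered the ACTB start, in regions 168563 and 54210 bp wide. MAF1, a repressor of RNA polymerase III, and its neighbour WDR97 shared a region at percentile 99.97 in both OGG1 lists. TG (thyroglobulin), CCL19 (a lymphoid chemokine), ZBTB5, SKA2, RNASE2 (an eosinophil ribonuclease), EFCAB3 and SEC14L3 followed, with mean percentiles of 99.94, 99.88, 99.76, 99.72, 99.69, 99.65 and 99.56. CCL19 had OGG1 in 6 of 6 other libraries and SMARCA1 in 0 of 6. TG and SEC14L3 had OGG1 in 5 of 6 and SMARCA1 in 0 of 6. ZBTB5 and SKA2, by contrast, had SMARCA1 in 3 and 4 of 6 other libraries. List members with OGG1 alone included RSF1, the partner of SMARCA5 in a remodelling complex, at percentiles 95.1 and 96.0. Others ranked lower: HELLS, a helicase needed for DNA methylation, stood at 12.7 and 45.4. RBBP8, which starts resection of DNA breaks, stood at 63.4 and 71.8, and TXNRD1, a thioredoxin reductase, at 70.3 and 30.7. TXNRD1 had SMARCA1 in 2 of 6 other libraries and OGG1 in 1 of 6.

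Among the 102 genes with SMARCA1 alone, RPS6KB1 and TUBD1 share a region at percentiles 96.2 and 98.1 of the SMARCA1 lists, 2513 and 6916 bp wide. They stand apart from the rest of the class. SMARCA1 lay at both in 6 of 6 other libraries, OGG1 in 6 and 5 of 6, and Orc6 in 4 of 4. In the siOrc6 H2O2 OGG1 lists the start of TUBD1 and RPS6KB1 lies in a stretch of 247 and 87.6 kb without a region. In 5 of the 6 other OGG1 lists the start of RPS6KB1 lay in regions 16942 to 66419 bp wide. The next was KLF6 (an immediate early zinc-finger gene), a member of the gene lists, at percentiles 84.6 and 84.5 of the SMARCA1 lists. It had SMARCA1 in 3 of 6 other libraries and OGG1 in 1 of 6. After it came NOTCH2NLA, DYNLT2, FAT3, EZH2, TMEM178B, FAM20C, DYRK1A and ELF4, with mean percentiles of 78.8 down to 68.7. EZH2 encodes the methyltransferase of Polycomb complex 2, DYRK1A a protein kinase and ELF4 an ETS transcription factor. NOTCH2NLA has near-identical copies among which reads can be split, so its value is uncertain. Of these 8 genes, 6 had SMARCA1 in 0 of 6 other libraries, with EZH2 and FAM20C in 1 of 6. Besides KLF6, members of the gene lists in this class included SMARCA1 itself, XRCC2 (a gene of homologous recombination) and CSMD1, a very long gene. SMARCA1, on chromosome X, had a region at percentiles 33.6 and 70.6 of the SMARCA1 lists and no region in the 12 other libraries, inside a stretch of 4325 and 4399 kb without OGG1.

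The gene lists below were read against the 61.5% of all protein-coding genes with all 4 libraries. All 24 base excision repair genes had all 4. The OGG1 gene itself stood at percentiles 95.5 and 97.2 of the SMARCA1 lists and 94.5 and 97.4 of the OGG1 lists. APTX, which removes adenylate from broken DNA ends, was at 97.8 or above in each library. NUDT1, which clears oxidised nucleotides, was at 99.01 or above. NEIL3, a glycosylase, was lower, between 30.4 and 63.3, and SMUG1, which removes uracil, was low for SMARCA1, at 30.7 and 43.2, and high for OGG1, at 91.9 and 98.9. Of ISWI and partner subunits 10 of 14 had all 4, among them SMARCA5, BPTF and BAZ1B. HMGXB4 was uneven, at percentiles 12.6 and 57.7 for SMARCA1 and 99.98 in both OGG1 lists. All 4 libraries were present at 16 of 18 other remodeller genes, 27 of 30 origin and replication genes, 22 of 26 break repair genes, 17 of 19 mismatch and excision repair genes, 23 of 26 antioxidant genes, 17 of 18 p53 targets, 15 of 18 immediate early genes, 14 of 16 heat shock genes, 54 of 59 ribosomal protein genes and 32 of 39 HOX genes. HSPA1A, HSPA1B, MDC1, IER3 and RPS18 were among the members without regions, and all 5 lie in the blank stretch of chromosome 6.

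Replication-dependent histone genes had all 4 libraries at 27 of 46 (58.7%), near the share of all genes. OGG1 lay at 35 and 37 of them and SMARCA1 at 28 and 32. H2AC8, H3C3 and H3C6 had OGG1 alone. Their percentiles in the OGG1 lists were 0.0227 and 7.26, 54.8 and 0.486, and 76.1 and 56.7, so some of these regions were among the weakest listed. Of bone and mesenchymal genes, the lineage of this line, 12 of 20 had all 4, and SPP1 (osteopontin) had OGG1 alone. RUNX2 had a region in 1 of 4 libraries, OGG1 replicate 1. Among lists of other lineages, hepatocyte, germline and blood cell genes had fewer SMARCA1 regions than the 65.7% and 72.1% of all genes. Hepatocyte genes had all 4 libraries at 3 of 14, with SMARCA1 at 4 and 5 and OGG1 at 8 and 8, and ALB, TTR and SERPINA1 had none (SERPINA1 lies in another stretch blank in all 20 lists). Germline genes had all 4 at 3 of 12, with SMARCA1 at 3 and 5 and OGG1 at 10 and 7. G6PC1, HP and AHSG of the hepatocyte list and PRM1, ODF1 and TEX101 of the germline list had OGG1 alone. That was 3 of 14 and 3 of 12 against 5.65% of all genes. HP, at percentiles 31.5 and 15.8 of the OGG1 lists, and TEX101, at 46.5 and 66.3, ranked below the others. Blood cell genes had SMARCA1 at 7 and 9 and OGG1 at 9 and 8, and all 4 libraries at 6 of 14. Neuron genes had SMARCA1 at 10 and 13, and all 4 libraries at 10 of 15. Very long genes of fragile sites had them at 10 of 18, with none at DMD, CNTNAP2 and CTNNA2. No test was made over these lists.

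Single genes were tested in the 12 libraries of the other conditions, which did not choose the classes. Of 3761 genes that could reach p = 0.05 with 6 against 6 libraries (two-sided Fisher's exact test), 0 passed after Benjamini-Hochberg adjustment with OGG1 in more libraries (0%) and 0 with SMARCA1 in more (0%). The smallest adjusted p was 0.0522 by Fisher's exact test, shared by 156 genes with OGG1 in 6 of 6 and SMARCA1 in 0 of 6, and 163 such genes were needed to pass. CCL19 was one of them. At an unadjusted p under 0.05 there were 1059 genes with OGG1 in more libraries and 0 with SMARCA1 in more. Of the class with OGG1 alone 180 of 1128 genes could be tested and 59 had an unadjusted p under 0.05, and of the class with SMARCA1 alone 1 of 102 could be tested. With the replicate number as a block (exact sign test over the 6 pairs) 156 of 240 testable genes passed, all with OGG1 in more libraries. The adjusted count also turned on single libraries: it was 240 without SMARCA1 siGl3 H2O2 replicate 2, 277 without SMARCA1 siOrc6 NT replicate 1 and 1942 without OGG1 siOrc6 NT replicate 2, where NT stands for untreated. With lists held to 35381 regions 206 genes passed with OGG1 in more libraries, and with lists held to 89.8 Mb 180 passed with SMARCA1 in more.

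The next counts were not tested. Of the 1128 genes with OGG1 alone, 1078 (95.6%) had OGG1 in more of the other 12 libraries than SMARCA1, beside 74.9% of all genes. Of the 102 genes with SMARCA1 alone, 6 (5.88%) had SMARCA1 in more of them, beside 1.92% of all genes, and 55 (53.9%) had OGG1 in more, beside 74.9%. SMARCA1 regions were in none of the 6 other SMARCA1 libraries at 92 of the 102. The same held for 7581 of all 19974 genes and for 743 of the 1128 with OGG1 alone.

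Promoters of the classes differed in base composition. A gene entered its class by regions at either end, so the promoter described need not hold the region. The 300-base windows of genes with all 4 libraries (14088 promoters of 9920 genes) had a median GC content of 65.3% and 25 CpG. Those of genes with OGG1 alone (1197 promoters of 858 genes) had 53% and 6 CpG, near the 51.3% and 6 CpG of genes without regions. Those of genes with SMARCA1 alone (141 promoters of 80 genes) had 64% and 21 CpG, near the 62.3% and 21 CpG of all protein-coding promoters. GGGCGG was in 67.3% of promoters with all 4 libraries, 56.7% with SMARCA1 alone and 32.7% with OGG1 alone, beside 56.3% of all 22132 and 45.0% of the 35116 promoters of the table. TATAAA, the TATA box, was in 6.05%, 7.09% and 14.3%, beside 9.46% of all. TGANTCA, the AP-1 motif, was in 4.88%, 6.38% and 9.52%, beside 6.15%, and CCAAT in 34%, 25.5% and 34.9%, beside 34.6%. All motifs were searched on both strands, and a match is a description of the letters in this window.

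The authors also deposited positions of windows about 2 kb wide, named up and ns, for SMARCA1 in these cells. The sources used here do not say which comparison the names refer to. The 12359 up windows overlapped SMARCA1 replicate 1 and 2 at 99.92% and 99.96%, and OGG1 at 94.7% and 97.8%. The 31524 ns windows overlapped SMARCA1 at 64.4% and 73.5% and OGG1 at 95.8% and 90.3%. Both OGG1 libraries covered 93.7% of up and 87.2% of ns windows, and neither covered 1.26% and 1.15%. At gene ends lay 65.0% of up and 16.3% of ns windows, so both kinds lay on OGG1 to a like extent while their places relative to genes differed.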

How the data were processed

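SMARCA1 and OGG1 CUT&RUN libraries of siOrc6 H2O2 cells (2 each) were grouped by their titles. Per the labels' protocols, libraries were sequenced as paired reads of 150 bases. The build hg38 and, among other tools, the peak caller SEACR 1.1 and the aligner Bowtie2 appear in the submitters' processing notes, with no order of steps. Per the file names and layout, each deposited list holds the regions of 1 library with the authors' total signal, maximum signal and its place. How the authors scaled that signal, and against which control, is not stated in those sources, so it only ranked or filtered regions within a list.

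Regions on chromosomes 1 to 22 and X were read with Python 3.11.15, numpy 2.4.6 and scipy 1.17.1. Gene positions and promoters came from RefSeq tables on GRCh38.p14, the assembly release of hg38. A window of 1 kb around each end of 19974 protein-coding genes and an overlap of 1 bp were used. A stretch is a run of bases covered in both replicates of an antibody. The span of a chromosome is its farthest region end in any list. No 2 lists were identical. Tests were exact permutations over libraries and Fisher's exact test per gene, checked on simulated data. The labels' batch equals the replicate number, so numbers pair the samples, and fits with that block were run.

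Per class, genes were named as list members first, at most 15, then 10 more by mean signal percentile (for all 4 libraries, by the lowest percentile), and stretches as the 5 of highest rank. Of these not every one is printed. Other list members given as examples, and the widths at ACTB and RPS6KB1, were chosen after their values were seen. The members, the 19 lists of 445 genes and the rules were chosen with earlier results of these data known. Alternatives were list length, covered bases, signal, width, merging, chromosome X, window, overlap and libraries left out.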

Additional observations from a re-analysis of the deposited data

Results flagged for a closer look

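The share of regions at gene ends went opposite ways in 2 conditions. OGG1 minus SMARCA1 was 30.7 and 11.8 points in the 2 pairs of untreated siGl3 cells and -21.7 and -2.76 points in the pairs of siOrc6 H2O2 cells, so the difference between conditions was -33.5 points. This difference between 2 conditions was not tested, and the test against all 6 other pairs did not pass (adjusted p = 0.982, exact permutation). Of the 2 conditions, siOrc6 H2O2 has the SMARCA1 lists marked as submitted again. That mark cannot be told apart from the siRNA or the treatment here.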

How the results depend on the processing

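Of 361 recomputed values, 287 kept their direction, side of the threshold or size. The direction of several results rested on how much each list holds. With lists of equal length (35381 regions of highest signal), OGG1 minus SMARCA1 in occupied genes was -0.88 points and the overlapped shares were 81.0% of SMARCA1 and 48.4% of OGG1 regions. Stretches without the other antibody then numbered 1626 and 14391, genes with SMARCA1 alone 696 and with OGG1 alone 747, and 206 genes passed with OGG1 in more libraries. Over all conditions the difference was 0.53 (log2) in region number, which no longer passed (adjusted p = 0.0694, exact permutation), and 4.22 points at gene ends, and covered bases in siOrc6 H2O2 against the rest differed by -0.15. With lists of equal bases (89.8 Mb) region number differed by -4.34 (log2), the share at gene ends by 35.9 points and occupied genes by -49.98 points, and overlapped shares were 22.5% and 97.5%. SMARCA1 stretches then split into 13806 without and 3246 with OGG1, OGG1 stretches into 57 and 781, and genes into 8037 with SMARCA1 alone, 39 with OGG1 alone and 1124 with all 4. The median distance between maxima was 16119 bp, and 180 genes passed with SMARCA1 in more libraries. Over all conditions the differences were -3.27, 0.38, 36.1 and -24.1 for number, bases, gene ends and genes, all passing but bases (adjusted p = 0.00386, 0.0833, 0.00772 and 0.0116, exact permutation), and -0.51 for bases against the rest. In the upper 50% of each list by signal, 15943 SMARCA1 stretches had both OGG1 libraries, 26825 and 12745 OGG1 stretches had none and both of SMARCA1, and 232 genes had SMARCA1 alone. Without regions above 20 kb, occupied genes differed by -5.51 points, 56.9% of SMARCA1 regions were overlapped, stretch counts were 8446 without and 11898 with OGG1 and 11422 with SMARCA1, and 1357 genes had SMARCA1 alone and 7925 all 4. Requiring overlap of 50% of a region gave shares of 85.8% and 8.09%, 6559 OGG1 stretches with both SMARCA1 libraries, and 89.4% of up and 80.5% of ns windows on both OGG1 libraries. With gene starts alone, 704 genes had OGG1 alone.

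With the replicate number as a block, 156 genes passed in the gene test in place of 0, and no other call changed. Leaving out 1 library gave 995 to 3652 SMARCA1 stretches without and 29153 to 52664 with OGG1, 40441 to 92866 OGG1 stretches without and 18266 to 37384 with SMARCA1, 155 to 384 genes with SMARCA1 alone, 1378 to 2346 with OGG1 alone, and 0 to 1942 genes in the gene test. Over all conditions the gene-end difference ran from -5.04 to 1.16 points. Against the rest, siOrc6 H2O2 differed by -0.89 to 0.84 in number, -0.51 to 0.73 in bases and -0.22 to 0.30 in width (log2). The causes were not tested. Depth is unknown, so no value could be set against it.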
